A study of Mus musculus with 62 samples.

Results

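The gastrocnemius muscle (GC) of floxed mice on a high-fructose diet (HFrD) was compared with the GC of untreated floxed mice (Norm). The members were the 8 libraries of these groups, 4 per diet, out of 62 libraries in the series. Genes entered with a mean FPKM (fragments per kilobase of gene scaled by library depth) of at least 0.5 over the 8 libraries, which left 10705 genes. All 8 mice were male F/F mice, which carry the loxP-flanked ChREBP gene without Cre and so keep ChREBP in muscle. They were littermate controls of the muscle knockout, 8 to 10 weeks old at the start. HFrD mice (WT_C292, WT_C294, WT_C301 and WT_C310) were fed for 3 months a diet that drew 68% of its calories from fructose, 20% from protein and 12% from fat. Norm mice (N_WTc368, N_WTc369, N_WTc397 and N_WTc401) had no treatment and ate chow in normoxia. The study also used this Norm group as the control of its hypoxia experiment. The sources used here do not give the age of the Norm mice at sampling, nor whether they were kept alongside the HFrD mice. Age and experiment can therefore not be told apart from diet in either comparison below. Each GC library came from 1 mouse. The question was which transcripts differ in this muscle after long-term fructose feeding.

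Mouse GC is built mostly of fast-twitch fibers, which carry fast isoforms of myosin and troponin and rely on glycolysis, with a minority of slow-twitch fibers that carry slow isoforms and rely on mitochondrial oxidation. Fiber identity is read from such isoform pairs, and oxidative fibers also express more genes of fat uptake and oxidation under PPAR and estrogen-related receptors with the coactivator PGC-1α. Fructose itself is cleared mainly by intestine and liver, where ChREBP, a sugar-sensing transcription factor, drives lipid synthesis genes. In bulk muscle, fewer cells of a type and less RNA per cell cannot be told apart.

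The 4 HFrD libraries held 19212836 to 23460511 reads and the Norm libraries 14817171 to 18981598. The Norm libraries fell into 2 sets before any question of diet. N_WTc397 and N_WTc401 matched the HFrD libraries, whereas N_WTc368 and N_WTc369 stood apart: Ddx3y, a Y-linked gene of every male, was listed at 34.7 and 32.9 FPKM in N_WTc397 and N_WTc401 and at 31.0 to 35.5 in HFrD, but at 6.32 and 4.57 in N_WTc368 and N_WTc369. Over the 24 libraries of the stress experiments, 12 shared the set of the HFrD libraries and 12 the other. The log2 level of 490 genes (4.58% of those tested) differed by at least 1 between the means of the 2 Norm pairs. Of the 45 genes that met the criterion of the study over 8 libraries, described in the next paragraph, 27 had such a gap: 14 of the 26 higher in HFrD were lower in N_WTc368 and N_WTc369, and 12 of the 19 lower in HFrD were higher there. Genes lower in N_WTc368 and N_WTc369 (322 genes) had a median transcript GC content of 40.2% and those higher (168 genes) of 52.6%, against 49.7% over all genes tested. The fold changes of F/F mice below are therefore given against all 4 Norm libraries (the 8-library comparison) and against N_WTc397 and N_WTc401 alone (the same-set comparison). Muscle identity was plain in each library, with Acta1, skeletal α-actin, at 13828 to 21725 FPKM. Alb, the plasma protein of liver, was listed at 68.5 FPKM in N_WTc368 and at 0.0182 to 0.346 in the other 7 libraries.

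In the 8-library comparison 45 genes met the criterion of the study, a log2 fold change of at least 1 in either direction with an unadjusted p under 0.05 (0.420% of genes tested). The test here was limma on log2(FPKM + 1). The study applied these limits in DESeq2 and reported more genes for this comparison, so the 45 are not its count. At the same limits limma-voom on recovered reads called 223. HFrD was higher for 26 of the 45 (0.243%) and lower for 19 (0.177%). That split was not firm: it was 45 higher and 7 lower under median-ratio rescaling of the libraries and 65 and 85 with a pseudocount of 0.1, and with 1 library left out it ranged from 11 to 124 higher (without N_WTc368 and N_WTc401) and from 8 to 55 lower (without N_WTc369 and N_WTc397). No gene reached an adjusted p under 0.05 in limma, with 2531 genes at an unadjusted p under 0.05 (23.6%), and none did so with the fold limit in limma-voom on recovered reads. Leaving out 1 library moved the 45 to 175 without N_WTc397, 167 without N_WTc401, 26 without N_WTc368 and 27 without WT_C292. Without N_WTc369, 7 genes passed the adjusted p with the fold limit. Against N_WTc397 and N_WTc401 the criterion was met by 32 of 10697 genes (0.299%), of which 27 were higher (0.252%) and 5 lower (0.0467%). There 123 genes (1.15%) passed the adjusted p, and 20 of these also passed the fold limit, 19 higher (0.178%) and 1 lower (0.00935%). That 20 became 9 without N_WTc397, 7 without N_WTc401 and 13 without WT_C292. With the library set as a term over all 8 libraries, 30 genes met the criterion (0.280%), 25 higher (0.234%) and 5 lower (0.0467%), and none passed the adjusted p in limma, with 1539 at an unadjusted p under 0.05 (14.4%). With the spread taken over the 12 libraries of the set, 13 genes higher (0.121%) and 1 lower (0.00934%) passed both limits. Of the 45 genes 14 met the criterion in both comparisons. HFrD was higher for 11 of these (Myh7, Tnnc1, Tnni1, Tnnt1, Tpm3, Atp2a2, Abra, Chac1, Nr4a3, Cish and Flvcr1) and lower for 3 (Col1a1, Col3a1 and Actc1). All 45 kept their direction in the same-set comparison, and 33 had an unadjusted p under 0.05 there. The comparisons share the HFrD libraries and N_WTc397 and N_WTc401, so this is no independent repeat. The first principal component of the 8 libraries held 67.2% of the variance and placed N_WTc368 and N_WTc369 at -30.7 and -44.6, and the other 6 libraries between 9.72 and 14.8. HFrD and Norm differed on it (exact permutation test, two-sided, p = 0.0286), but the component followed the library sets, and the p was 0.0571 without N_WTc368 and 0.171 to 0.2 without any 1 HFrD library. The second held 13.0%, with HFrD at 1.55 to 9.10 and N_WTc397 and N_WTc401 at -9.78 and -8.57, while N_WTc368 and N_WTc369 lay at -16.2 and 13.4 (exact permutation p = 0.143). In what follows, rose and fell are used for an unadjusted limma p under 0.05 in the comparison named, and fold changes are differences of log2(FPKM + 1), HFrD minus Norm. Where a gene has a pair of fold changes, the first is from the 8-library comparison, with its SE, and the second from the same-set comparison, with its adjusted p. Values in the 4 HFrD and the 4 Norm libraries follow the order of the mice given above.

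Slow-twitch sarcomere genes showed the highest median difference of the gene lists examined. Of 14 tested members, 7 rose and none fell in the 8-library comparison, where 4.65% of all genes rose and 19.0% fell. Without N_WTc369 13 rose, and with the library set as a term 11 rose, in a fit where 4.78% of all genes rose and 9.59% fell. In the same-set comparison 12 rose and none fell, beside 6.34% and 12.7% of all genes, and 9 passed the adjusted p. With the spread taken over 12 libraries 12 rose, beside 6.23% of all genes. The median log2 fold change of the list was 0.70 and 1.13, against -0.10 and -0.04 for all genes tested. The list holds markers the study chose, and is no independent evidence of its direction.

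Myh7, the slow myosin heavy chain (chromosome 14, 55208141 to 55232083, minus strand, GRCm39), was at 24.6, 22.4, 22.1 and 16.1 FPKM in WT_C292, WT_C294, WT_C301 and WT_C310, and at 0.930, 12.3, 5.14 and 3.16 in N_WTc368, N_WTc369, N_WTc397 and N_WTc401. Every HFrD library lay above every Norm library, and N_WTc369 was the highest of the Norm group. The means were 21.3 ± 3.64 (SD, n = 4) and 5.38 ± 4.92 (SD, n = 4). The log2 fold change was 2.12 ± 0.492 (SE) in the 8-library comparison and 2.13 ± 0.188 (adjusted p = 0.00452) in the same-set one.

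The slow troponin subunits moved with it. Tnnc1, the calcium-binding subunit of slow and cardiac troponin, was at 67.0, 68.5, 60.2 and 53.9 FPKM in HFrD and at 5.62, 53.4, 15.5 and 11.4 in Norm, with log2 fold changes of 1.94 (SE 0.532) and 2.14 (adjusted p = 0.000624) in the 8-library and same-set comparisons. Tnni1, the slow inhibitory subunit, was at 10.7, 11.4, 10.9 and 9.62 FPKM in HFrD and at 0.572, 8.53, 2.61 and 1.74 in Norm (1.74, SE 0.453, and 1.89, adjusted p = 0.000624). Tnnt1, the slow tropomyosin-binding subunit, was at 67.1, 59.8, 58.3 and 50.6 FPKM in HFrD and at 8.50, 49.0, 16.1 and 13.3 in Norm (1.69, SE 0.43, and 1.93, adjusted p = 0.000624). For all 3 subunits the lowest HFrD library exceeded the highest Norm library, which was N_WTc369 each time. With Myh7 and Tpm3, 5 of the 14 list members had no overlap in this direction, a pattern found in 307 of the 10705 genes (2.87%). Without N_WTc369 the log2 fold changes of Myh7, Tnnc1, Tnni1 and Tnnt1 were 2.59, 2.51, 2.22 and 2.17, and without N_WTc368 they were 1.66, 1.5, 1.36 and 1.37, each at an unadjusted p under 0.05.

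Tpm3, which encodes slow tropomyosin, was at 27.3, 26.9, 25.6 and 22.3 FPKM in HFrD and at 8.52, 21.9, 9.52 and 8.72 in Norm, a log2 fold change of 1.11 (SE 0.263) and 1.39 (adjusted p = 0.000624). Atp2a2, the SERCA2 calcium pump of slow and cardiac muscle, was at 99.4, 70.9, 71.3 and 53.6 FPKM in HFrD and at 21.1, 68.8, 24.2 and 29.0 in Norm (1.15, SE 0.347, and 1.41, adjusted p = 0.0342). Its groups overlapped, since N_WTc369 lay above WT_C310. Csrp3, the muscle LIM protein, rose by 0.43 (SE 0.135) and 0.60 (adjusted p = 0.0193). Ankrd2, a stretch-responsive ankyrin repeat protein, and Myl3, the slow essential light chain, had log2 fold changes of 0.70 (SE 0.313) and 0.69 (SE 0.475) in the 8-library comparison. In the same-set comparison both rose, by 0.94 (adjusted p = 0.0493) and 1.32 (adjusted p = 0.0136). Myl3 read 175 FPKM in N_WTc369, above the 76.9 to 114 of HFrD. Summed over the list, with the values of a Norm pair given here and below from low to high, FPKM was 521 to 742 in HFrD, 253 and 261 in N_WTc397 and N_WTc401, and 225 and 748 in N_WTc368 and N_WTc369. Myh7b, another slow marker of the study, stayed at 0.790 FPKM or below and was not tested.

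**Figure D1:**
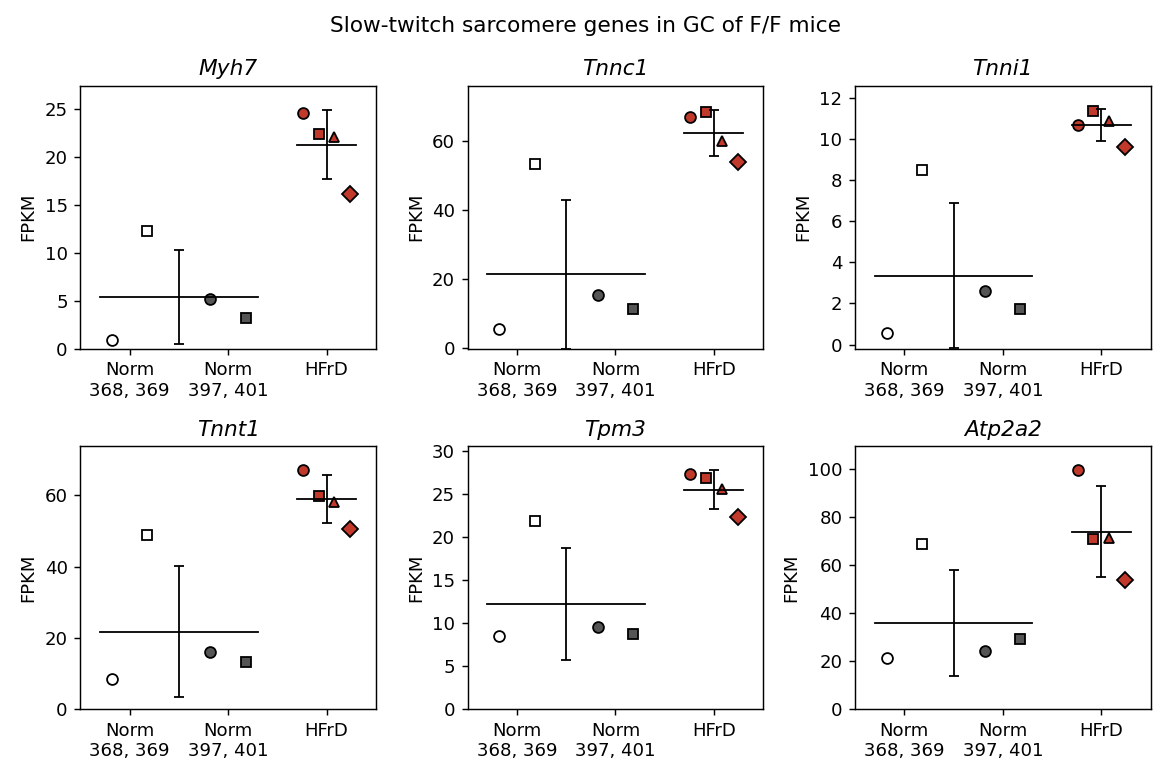
FPKM (vertical axes, linear) of 6 slow-twitch genes in each library, with N_WTc368 and N_WTc369 as open symbols, N_WTc397 and N_WTc401 as grey symbols and the 4 HFrD libraries in red. Horizontal lines are group means over 4 libraries and bars are SD, and N_WTc369 (open square) lies above the other Norm libraries in every panel.

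The promoters of Myh7, Tnnc1, Tnni1 and Tnnt1, the slow myosin and troponin genes, are shown because these genes rose together. None of 3 motifs searched was found in all 4. The sequences are from RefSeq on GRCm38.p6, 250 bases before to 50 after the most upstream start listed, 5′ to 3′ on the strand of the gene, with motif matches in capitals. Searched on both strands were CATTCC (the MCAT element bound by TEAD factors, in 14.7% of all 32851 promoters of this length), the E-box CAGCTG bound by MyoD-family factors (16.3%), and TATAAA (13.6%). No matches overlapped. Windows were chr14:54994577-54994876 on the minus strand for Myh7, chr14:31208062-31208361 on the plus strand for Tnnc1, chr1:135799171-135799470 on the plus strand for Tnni1 and chr7:4515926-4516225 on the minus strand for Tnnt1.
Myh7: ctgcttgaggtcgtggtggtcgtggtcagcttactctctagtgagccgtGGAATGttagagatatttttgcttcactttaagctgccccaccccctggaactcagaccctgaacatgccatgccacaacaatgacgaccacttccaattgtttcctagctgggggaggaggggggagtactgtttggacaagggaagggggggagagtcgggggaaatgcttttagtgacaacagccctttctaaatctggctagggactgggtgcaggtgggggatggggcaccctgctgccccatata
Tnnc1: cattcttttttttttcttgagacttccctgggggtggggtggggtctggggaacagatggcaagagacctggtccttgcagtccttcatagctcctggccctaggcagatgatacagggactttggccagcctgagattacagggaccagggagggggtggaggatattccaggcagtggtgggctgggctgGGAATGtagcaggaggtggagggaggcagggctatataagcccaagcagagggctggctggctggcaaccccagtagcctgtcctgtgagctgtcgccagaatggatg
Tnni1: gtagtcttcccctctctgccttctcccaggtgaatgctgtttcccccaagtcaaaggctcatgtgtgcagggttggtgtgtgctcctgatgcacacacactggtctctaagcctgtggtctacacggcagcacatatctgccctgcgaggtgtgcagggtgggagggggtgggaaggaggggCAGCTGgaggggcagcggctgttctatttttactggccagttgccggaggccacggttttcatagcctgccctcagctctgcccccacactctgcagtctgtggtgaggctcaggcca
Tnnt1: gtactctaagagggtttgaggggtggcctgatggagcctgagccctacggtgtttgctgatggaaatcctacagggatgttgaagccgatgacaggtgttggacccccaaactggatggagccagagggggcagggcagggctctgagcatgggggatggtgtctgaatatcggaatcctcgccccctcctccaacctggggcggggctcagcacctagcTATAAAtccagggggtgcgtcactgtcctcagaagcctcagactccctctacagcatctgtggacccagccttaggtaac

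Myh7 and Tnnc1 each held 1 MCAT match, read on the opposite strand as GGAATG, 201 and 58 bases before the start. Tnni1 held 1 E-box match 68 bases before the start, and Tnnt1 held TATAAA 30 bases before it. A match is a description of letters in this window and not a bound site.

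Several fast-twitch sarcomere genes fell, by less than the slow genes rose in the medians of the lists, a difference that was not tested. Among 15 tested members, none rose and 7 fell in the 8-library comparison, and 1 rose and 5 fell in the same-set comparison, beside 19.0% and 12.7% of all genes that fell, with median log2 fold changes of -0.20 and -0.09. Myoz1, a Z-disc protein of fast fibers, was at 722, 788, 875 and 857 FPKM in HFrD and at 1237, 1193, 1063 and 985 in Norm, and fell by 0.46 (SE 0.109) and by 0.34 (adjusted p = 0.102). Myl1, the fast essential light chain, fell by 0.37 (SE 0.103) and by 0.28 (adjusted p = 0.123). Casq1, the fast calcium store protein, fell by 0.50 (SE 0.162) and by 0.23 (adjusted p = 0.151), and Actn3, fast α-actinin, fell by 0.30 (SE 0.0988) and by 0.24 (adjusted p = 0.191). The unadjusted same-set p reached 0.0613 for Casq1 and 0.253 for Actn3 without N_WTc397.

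None of the 3 fast myosins fell in either comparison. Myh4, the IIb myosin that dominates this muscle, was at 9801, 9888, 10176 and 8877 FPKM in HFrD and at 7853, 7731, 10221 and 9615 in Norm, a difference of 0.14 (SE 0.126) and -0.04 (adjusted p = 0.836). Myh2, the oxidative IIa myosin, was at 309.6 to 409.6 FPKM in HFrD, at 237 and 238 in N_WTc397 and N_WTc401, and at 220.0 and 479 in N_WTc368 and N_WTc369. It rose by 0.60 in the same-set comparison (adjusted p = 0.0429), with 0.37 (SE 0.237) over 8 libraries. Myh1, the IIx myosin, differed by 0.19 (SE 0.184) and 0.35 (adjusted p = 0.377), with WT_C294 at 688 FPKM and the other 7 libraries at 336 to 492. Tnni2 and Tnnt3, the fast troponin subunits, differed by -0.04 and -0.06 over 8 libraries (SE 0.115 and 0.0977) and by 0.11 (adjusted p = 0.409) and -0.06 (adjusted p = 0.656) in the same-set comparison. Tnnc2, the fast troponin C, was listed at no more than 1.77 FPKM, while Tnni2 held 2858 to 3877, and how reads were assigned to it was not tested.

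Some regulators of oxidative fibers rose. Of the 19 tested, 5 rose and 2 fell over 8 libraries (4.65% of all genes rose and 19.0% fell), and 6 rose and 1 fell in the same-set comparison (6.34% and 12.7%), with medians of 0.19 and -0.01 and 1 past the adjusted p. Ppargc1a, which encodes PGC-1α, was at 13.8, 9.07, 12.7 and 10.6 FPKM in HFrD and at 5.39, 5.85, 7.29 and 7.67 in Norm, with no overlap between the groups. It rose by 0.73 ± 0.147 (SE) and by 0.55 ± 0.142 in the same-set comparison (adjusted p = 0.106). Esrrg, an estrogen-related receptor of oxidative fibers, was at 11.9, 9.04, 9.20 and 9.18 FPKM in HFrD and at 4.60, 5.98, 5.77 and 7.24 in Norm (0.66, SE 0.133, and 0.53, adjusted p = 0.0887). Ppara, the fatty acid sensing nuclear receptor, was at 7.90, 4.36, 6.95 and 5.42 FPKM in HFrD and at 2.80, 3.87, 3.81 and 2.93 in Norm (0.70, SE 0.167, and 0.69, adjusted p = 0.123). Vegfa, the angiogenic growth factor, rose by 0.47 (SE 0.147) and by 0.43 (adjusted p = 0.179). The unadjusted same-set p reached 0.0658 for Ppara without N_WTc401 and 0.211 for Vegfa without N_WTc397. In each of these 4 genes, picked from the list by smallest p, the lowest HFrD library was above the highest Norm library. Of all genes 2.87% had this pattern. Esrrb, a related receptor chosen after its values were seen, had 0.32 (SE 0.169) over 8 libraries and rose by 0.59 in the same-set comparison (adjusted p = 0.0391).

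Genes of fat uptake and oxidation changed upward only. Of 29 tested members, 8 rose and none fell over 8 libraries, and 18 rose and none fell in the same-set comparison, where 8 passed the adjusted p, beside 4.65% and 6.34% of all genes that rose. With the library set as a term 17 rose (4.78% of all genes), and without N_WTc369 the 8 over all libraries became 16. The medians were 0.16 and 0.37, and the first was 0.08 without N_WTc397 and 0.31 without N_WTc369. Ucp3, a mitochondrial carrier induced by fatty acids, was at 128, 120.3, 132 and 158 FPKM in HFrD and at 73.2, 64.5, 93.8 and 87.7 in Norm, and rose by 0.76 (SE 0.138) and by 0.56 (adjusted p = 0.0516). Pdk4, the kinase that closes pyruvate dehydrogenase when fat is burned, was at 565, 494, 522 and 663 FPKM in HFrD and at 420.4, 303, 324 and 360.3 in Norm (0.67, SE 0.133, and 0.70, adjusted p = 0.0429). Lpl, the lipase that frees fatty acids from circulating triglyceride, was at 148, 117, 113 and 130.3 FPKM in HFrD and at 38.4, 63.3, 83.5 and 79.1 in Norm (0.98, SE 0.228, and 0.63, adjusted p = 0.0429). No HFrD library overlapped a Norm library for these 3 genes, which were picked from the list by smallest p. Of all genes 2.87% had this pattern.

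Among the enzymes of β-oxidation, Acadm, the medium-chain acyl-CoA dehydrogenase, was at 99.5 to 112 FPKM in HFrD and at 76.0 to 96.6 in Norm, and rose by 0.31 (SE 0.0942) and by 0.43 (adjusted p = 0.0409). Acadl, the long-chain enzyme, rose by 0.39 (SE 0.15) and by 0.53 (adjusted p = 0.0409), and its unadjusted 8-library p reached 0.0807 when single libraries were left out. Hadhb, a subunit of the trifunctional protein, had 0.32 (SE 0.143) and rose by 0.52 in the same-set comparison (adjusted p = 0.0428). Fabp3, the fatty acid carrier of oxidative muscle, had 0.67 (SE 0.32) and 0.98 (adjusted p = 0.0623). N_WTc369 held 886 FPKM of Fabp3, above all HFrD libraries (593 to 843). Cpt1b, the muscle carnitine palmitoyltransferase, was low, at 0.884, 0.683, 0.587 and 0.929 FPKM in HFrD and 0.418, 0.440, 0.525 and 0.391 in Norm, with no overlap. How reads were assigned to Cpt1b at this low level was not tested. It rose by 0.29 (SE 0.0811) and by 0.28 (adjusted p = 0.189, unadjusted p 0.146 without N_WTc401 and 0.0509 without WT_C292). Acadm, Acadl, Hadhb and Fabp3 are named here partly from values already seen. Adipocytes also express Lpl. Of 10 adipocyte markers tested none rose or fell in either comparison, and their summed FPKM was 45.6 to 151 in HFrD and 55.7 to 106 in Norm. Their median log2 fold changes were -0.19 over 8 libraries and -0.39 in the same-set comparison.

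**Figure D2:**
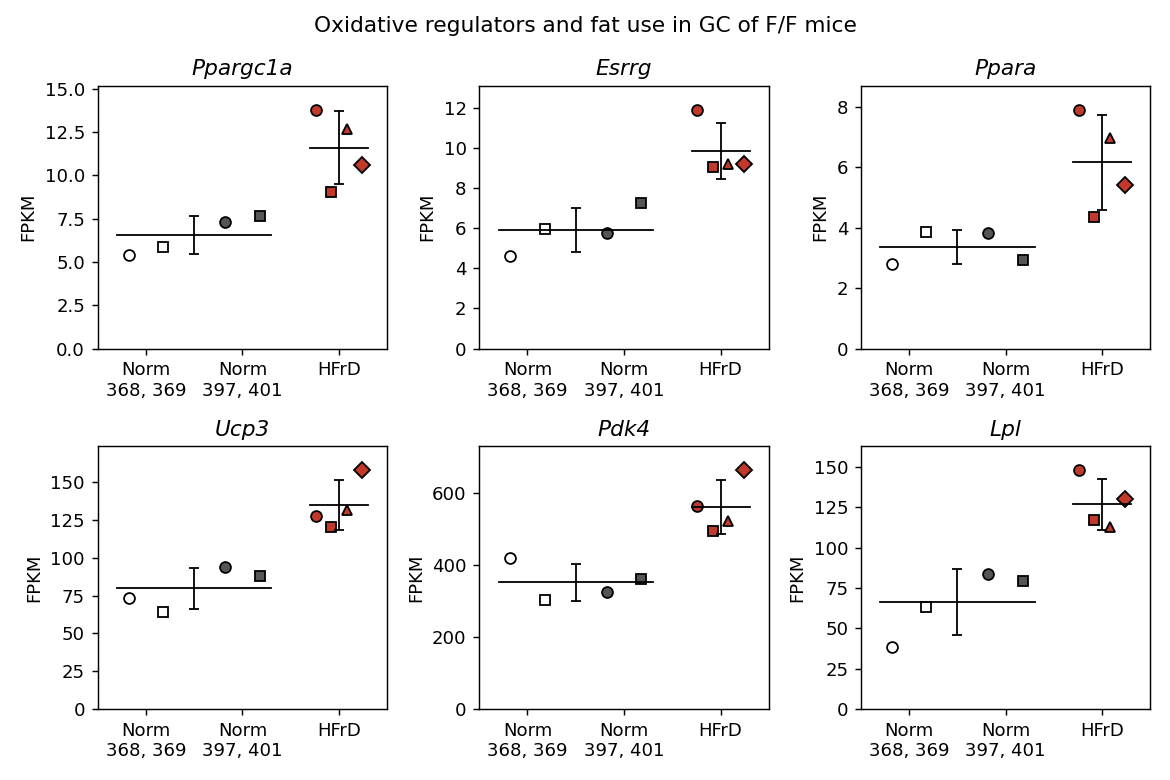
FPKM (vertical axes, linear) in each library of the regulators Ppargc1a, Esrrg and Ppara and of Ucp3, Pdk4 and Lpl, with N_WTc368 and N_WTc369 open, N_WTc397 and N_WTc401 grey and HFrD red. Lines are means over 4 libraries and bars SD, and the 4 HFrD libraries lie above all 4 Norm libraries in every panel.

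Many nuclear genes of mitochondrial energy metabolism rose against the same-set Norm libraries and few over 8 libraries, whereas genes of the mitochondrial genome went the other way. Of 78 respiratory chain subunits encoded in the nucleus, 4 rose and 1 fell over 8 libraries (median -0.14), whereas 34 rose and none fell against N_WTc397 and N_WTc401 (median 0.12, 4 past the adjusted p). Over all genes 4.65% rose and 19.0% fell over 8 libraries, and 6.34% rose and 12.7% fell in the same-set comparison, so the 4 that rose over 8 libraries are near the background. The sum of these subunits was 8843 to 9497 FPKM in HFrD, 8273 and 8475 in N_WTc397 and N_WTc401, and 11236 and 13356 in N_WTc368 and N_WTc369. HFrD thus sat between the 2 Norm pairs. Atp5k, an ATP synthase subunit, was at 63.0 to 78.1 FPKM in HFrD and at 43.7 and 48.8 in N_WTc397 and N_WTc401 (0.58, adjusted p = 0.0429), and rose by 0.35 over 8 libraries (SE 0.143). Uqcrb, a complex III subunit, rose by 0.21 (SE 0.0785) and by 0.18 (adjusted p = 0.193). Atp5o, another ATP synthase subunit, was higher by 0.36 to 0.48 over 8 libraries with 1 library left out. In the same-set comparison that range was 0.35 to 0.66. The unadjusted 8-library p of Atp5k and Uqcrb reached 0.102 and 0.0806 when single libraries were left out, and the unadjusted same-set p of Uqcrb reached 0.106 without N_WTc397. Pyruvate and TCA cycle genes (30 tested) had 1 that rose and 1 that fell over 8 libraries, and 8 that rose and 2 that fell in the same-set comparison, of which only the 8 exceed these shares of all genes. Idh2, mitochondrial isocitrate dehydrogenase, differed by 0.51 (SE 0.269) and rose by 0.89 in the same-set comparison (adjusted p = 0.0497). Idh2, like Myl3 above and Ldhb below, was chosen after its values were seen. Pcx, pyruvate carboxylase, had the smallest p of its list and fell. With 1 library left out it differed by -0.41 to -0.26 over 8 libraries and by -0.44 to -0.26 in the same-set comparison. Of 13 genes of the mitochondrial genome, 5 rose and none fell over 8 libraries (median 0.45), beside 4.65% of all genes that rose. In the same-set comparison 1 rose and none fell (median 0.14), beside 6.34%. Their sum was 132139 to 146405 FPKM in HFrD, 125379 and 138558 in N_WTc397 and N_WTc401, and 95759 and 108493 in N_WTc368 and N_WTc369. Of the mitochondrial genes mt-Nd4l and mt-Nd6, complex I subunits, met the criterion over 8 libraries (1.01 and 1.23), with 0.32 (adjusted p = 0.341) and 0.23 (adjusted p = 0.294) in the same-set comparison, and with unadjusted p up to 0.0575 and 0.0891 over 8 libraries when single libraries were left out.

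Glycolysis genes changed mostly downward. Of 18 tested members, none rose and 9 fell over 8 libraries (median -0.32), and 2 rose and 6 fell in the same-set comparison (median -0.14), beside 19.0% and 12.7% of all genes that fell. With the library set as a term 3 fell, beside 9.59% of all genes. Slc16a3, the MCT4 transporter that exports lactate from glycolytic fibers, was at 27.0, 27.8, 35.7 and 38.0 FPKM in HFrD and at 61.2, 63.8, 48.5 and 44.9 in Norm. It fell by 0.75 (SE 0.154) and by 0.54 (adjusted p = 0.105). Pgk1, phosphoglycerate kinase, was at no more than 380.1 FPKM in HFrD and at 422 to 602 in Norm, and fell by 0.53 (SE 0.133) and by 0.37 (adjusted p = 0.105). Pgam2, the muscle phosphoglycerate mutase, fell by 0.60 (SE 0.182) and by 0.29 (adjusted p = 0.201), and Tpi1, triosephosphate isomerase, fell by 0.58 (SE 0.184) and by 0.28 (adjusted p = 0.236). Their unadjusted same-set p reached 0.173 and 0.16 without N_WTc401. In all 4 genes the HFrD libraries lay under every Norm library, a pattern in this direction found in 1427 genes (13.3%). Ldhb, the heart-type lactate dehydrogenase, had 0.34 (SE 0.289) over 8 libraries and rose by 0.77 in the same-set comparison (adjusted p = 0.0429), from 71.4 FPKM in both N_WTc397 and N_WTc401 to 107 to 153 in HFrD, while N_WTc369 held 186.

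Of 14 glycogen genes, 1 rose and 3 fell over 8 libraries, near the background of 19.0% of all genes that fell, and 2 rose and 6 fell in the same-set comparison, beside 12.7% of all genes that fell. Pgm1, the phosphoglucomutase that links glycogen to glycolysis, was at 355, 351, 414 and 406 FPKM in HFrD and at 548, 581, 473 and 499.5 in Norm (fell by 0.46, SE 0.102, and by 0.35, adjusted p = 0.0887). Ugp2, which makes the UDP-glucose used for glycogen, moved the other way, at 381 to 434 FPKM in HFrD and at 273, 267, 344 and 353 in Norm (0.41, SE 0.116, and 0.22, adjusted p = 0.123).

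Some lipid synthesis genes fell, in a number not far from the background over 8 libraries. Of 15 lipogenesis genes, none rose and 4 fell in each comparison, and of 10 sterol synthesis genes none rose and 3 fell in each, beside 19.0% of all genes that fell over 8 libraries and 12.7% in the same-set comparison. With the library set as a term 2 lipogenesis genes fell, beside 9.59% of all genes. Thrsp, a lipogenic nuclear protein, was at 3.51, 2.61, 3.59 and 2.81 FPKM in HFrD and at 7.23, 5.40, 5.13 and 5.17 in Norm, and fell by 0.70 ± 0.125 (SE) and by 0.58 (adjusted p = 0.0545). Srebf1, the transcription factor SREBP-1 of fatty acid synthesis, was at 3.15, 4.19, 4.43 and 4.38 FPKM in HFrD and at 8.10, 8.10, 4.99 and 6.69 in Norm (fell by 0.65, SE 0.152, and by 0.44, adjusted p = 0.153). Fasn, fatty acid synthase, was at 1.09, 1.00, 1.44 and 1.48 FPKM in HFrD and at 4.41, 1.95, 2.5 and 1.54 in Norm (fell by 0.62, SE 0.212, and by 0.41, adjusted p = 0.184). Scd2, a stearoyl-CoA desaturase, fell by 0.76 (SE 0.237) and by 0.36 (adjusted p = 0.261). Insig1, the endoplasmic reticulum protein that holds SREBP back, was at 2.98, 2.58, 3.13 and 3.27 FPKM in HFrD and at 6.97, 4.84, 4.06 and 5.06 in Norm, and fell by 0.63 (SE 0.136) and by 0.48 (adjusted p = 0.074). Dhcr7, the last enzyme of cholesterol synthesis, fell by 0.39 (SE 0.086) and by 0.29 (adjusted p = 0.126). HFrD libraries lay below all Norm libraries for each of these 6 genes, a pattern found in 13.3% of all genes. The 6 were picked from their lists by smallest p, so this is no result about the lists. The unadjusted same-set p reached 0.242 for Fasn without N_WTc397, and 0.141 for Srebf1 and 0.0751 for Dhcr7 without N_WTc401. For Scd2 it reached 0.14 without N_WTc397, and it was also above 0.05 without N_WTc401 or WT_C310.

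**Figure D3:**
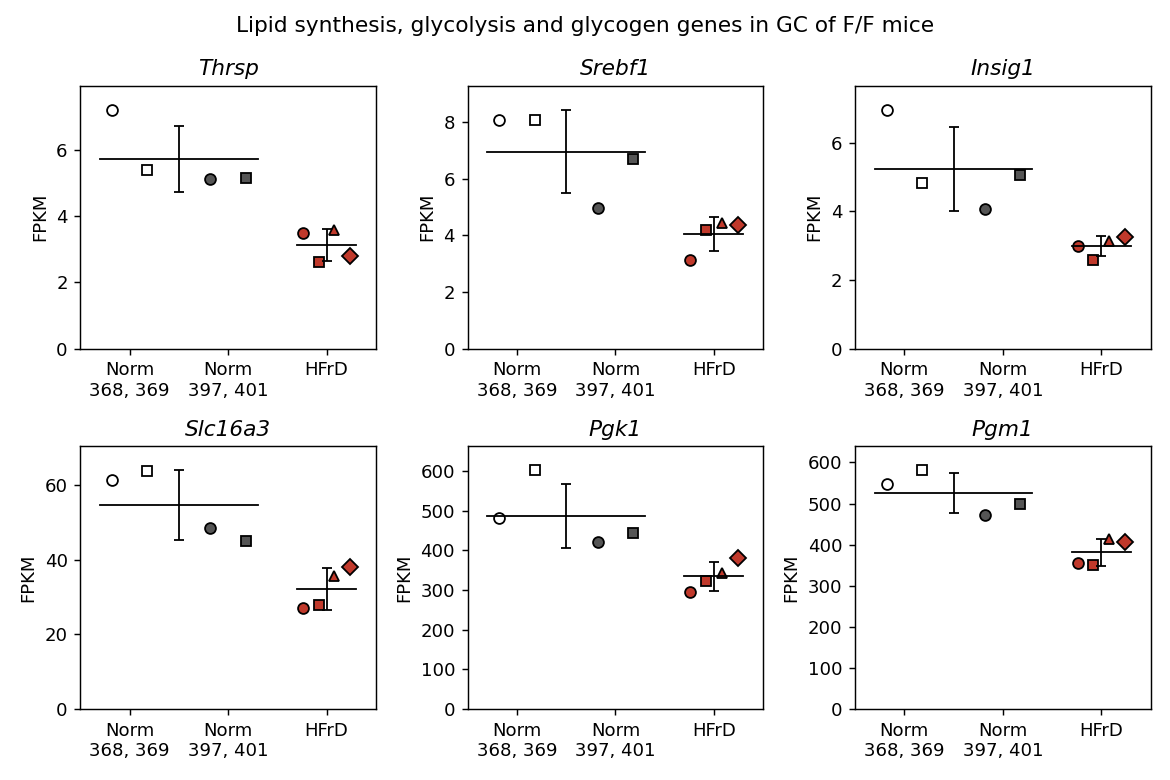
FPKM (vertical axes, linear) in each library of the lipid synthesis genes Thrsp, Srebf1 and Insig1, the glycolysis genes Slc16a3 and Pgk1 and the glycogen gene Pgm1, with N_WTc368 and N_WTc369 open, N_WTc397 and N_WTc401 grey and HFrD red. Lines are means over 4 libraries and bars SD, and every HFrD library lies below every Norm library.

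For ChREBP itself no difference was detectable. Mlxipl, which encodes ChREBP, was at 9.25, 8.19, 8.77 and 10.8 FPKM in HFrD and at 8.88, 7.86, 7.76 and 10 in Norm. The difference was 0.09 ± 0.109 (SE) over 8 libraries and 0.06 ± 0.12 (adjusted p = 0.828) in the same-set comparison. Mlxip, its paralog MondoA, differed by -0.10 (SE 0.0869) and -0.08 (adjusted p = 0.505). Mlx, the partner that both factors need to bind DNA, was at 2.94, 3.73, 3.33 and 3.99 FPKM in HFrD and at 5.47, 5.67, 4.59 and 4.35 in Norm, and fell by 0.42 (SE 0.108) and by 0.29 (adjusted p = 0.182, unadjusted p up to 0.102 without N_WTc397). Txnip, a target of both factors, was at 108 to 127 FPKM in HFrD, at 110.2 and 153 in N_WTc397 and N_WTc401, and at 268 and 202 in N_WTc368 and N_WTc369. It fell over 8 libraries (by 0.58, SE 0.239, unadjusted p above 0.05 when any 1 of 6 libraries was left out, up to 0.0839), with -0.16 in the same-set comparison (adjusted p = 0.506). Over the ChREBP network, 4 of 10 tested members fell over 8 libraries and 3 in the same-set comparison, among them Gpd1, glycerol-3-phosphate dehydrogenase (by 0.48, SE 0.15, and by 0.22, adjusted p = 0.15, unadjusted p 0.0795 without N_WTc397), beside 19.0% and 12.7% of all genes. None of the 10 rose, and 4.65% of all genes did over 8 libraries. Pklr, the liver pyruvate kinase that ChREBP drives there, was at or under 0.1 FPKM in these 8 libraries.

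Few genes of fructose and hexose handling changed. Of 10 tested, none rose and 2 fell over 8 libraries, which is no result about the list, beside 4.65% and 19.0% of all genes, and none rose or fell in the same-set comparison. Slc2a5, the fructose transporter GLUT5, was at or under 0.0318 FPKM in the 8 libraries and was not tested. Khk, ketohexokinase, the first enzyme of fructose breakdown, was at 3.95, 4.27, 5.18 and 4.58 FPKM in HFrD and at 4.70, 7.21, 5.02 and 4.49 in Norm (-0.20, SE 0.137, and -0.07, adjusted p = 0.727). Slc2a4, the insulin-regulated glucose transporter GLUT4, fell over 8 libraries by 0.43 (SE 0.164), with 107 to 121 FPKM in HFrD, 128 and 123 in N_WTc397 and N_WTc401, and 169 and 208 in N_WTc368 and N_WTc369. In the same-set comparison it had -0.14 (adjusted p = 0.309). Akr1b3, aldose reductase, fell by 0.35 over 8 libraries (SE 0.131), with -0.13 (adjusted p = 0.34) in the same-set comparison. The unadjusted 8-library p of Slc2a4 and Akr1b3 reached 0.0714 and 0.068 when single libraries were left out.

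Several signalling and stress genes were far higher in HFrD than in the 2 Norm mice of the same set, while N_WTc369 lay within or above the HFrD range. Nr4a3, an orphan nuclear receptor induced by exercise, was at 7.49, 7.75, 5.76 and 12.3 FPKM in HFrD, at 0.712 and 0.581 in N_WTc397 and N_WTc401, and at 4.32 and 9.36 in N_WTc368 and N_WTc369. It rose by 1.37 over 8 libraries (SE 0.57, unadjusted p up to 0.105 without single libraries) and by 2.46 in the same-set comparison (adjusted p = 0.00519). Atf3, a stress-induced transcription factor, was at 8.43, 20.6, 15.4 and 13.1 FPKM in HFrD, at 1.85 and 1.64 in N_WTc397 and N_WTc401, and at 3.70 and 65.7 in N_WTc368 and N_WTc369 (1.08, SE 0.932, and 2.43, adjusted p = 0.0139). Irs2, an adaptor of the insulin receptor, was at 13.4, 12.6, 11 and 8.10 FPKM in HFrD, at 2.98 and 3.62 in N_WTc397 and N_WTc401, and at 7.64 and 17.4 in N_WTc368 and N_WTc369 (0.72, SE 0.436, and 1.5, adjusted p = 0.0159). Xirp1, an actin-binding protein of damaged or loaded fibers, had 0.82 (SE 0.424) over 8 libraries and rose by 1.48 in the same-set comparison (adjusted p = 0.0012). Sik1, a cAMP-induced kinase, had 0.37 (SE 0.542) over 8 libraries and rose by 1.43 in the same-set comparison (adjusted p = 0.0428). For both genes HFrD overlapped the 4 Norm libraries, with N_WTc369 the highest of the 8 at 79.8 and 14.6 FPKM. Atf3, Irs2, Xirp1 and Sik1 were chosen after their values were seen. For Nr4a3, Atf3, Irs2 and Sik1, N_WTc397 and N_WTc401 were the lowest 2 of the 8 libraries. N_WTc369 also held the highest Fos, an immediate-early gene, at 176 FPKM against 2.97 to 45.2 in the other 7. Of 18 immediate-early genes, 1 rose over 8 libraries, near the 4.65% of all genes, and 6 rose and 1 fell in the same-set comparison, beside 6.34% and 12.7% of all genes.

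Chac1, a glutathione-degrading enzyme of the integrated stress response, rose in both comparisons. It was at 50, 64.3, 38.2 and 37.9 FPKM in HFrD and at 34.4, 23.2, 18.9 and 13.8 in Norm, with no overlap (1.08, SE 0.269, and 1.47, adjusted p = 0.0359). It was the 1 gene of 9 tested in that list that rose, and 2 fell over 8 libraries, near the background of 4.65% of all genes that rose and 19.0% that fell. Among FoxO, glucocorticoid and atrophy genes (28 tested), 6 rose and 2 fell in each comparison, with medians of 0.00 and 0.12. Over 8 libraries 4.65% of all genes rose and 19.0% fell, and in the same-set comparison 6.34% and 12.7% did. Gabarapl1, an autophagosome protein, rose by 0.49 (SE 0.15) and by 0.69 (adjusted p = 0.0574), and Bnip3, a mitophagy receptor, rose by 0.27 in both (SE 0.0879, and adjusted p = 0.172). Map1lc3a, an LC3 of autophagosomes, fell by 0.47 (SE 0.136) and by 0.24 (adjusted p = 0.0972). Fst, the myostatin antagonist follistatin, was at 0.926, 0.938, 0.851 and 0.892 FPKM in HFrD and at 2.29, 1.71, 1.58 and 1.35 in Norm, and fell by 0.51 (SE 0.102) and by 0.37 (adjusted p = 0.0542). Insr, the insulin receptor, rose by 0.23 in both (SE 0.0784, and adjusted p = 0.124), and Igfbp5, an IGF-binding protein, fell by 0.46 in both (SE 0.159, and adjusted p = 0.114). Without N_WTc397 or N_WTc401 the unadjusted same-set p reached 0.171 for Bnip3, 0.0833 for Insr and 0.0507 for Igfbp5, and without WT_C310 the unadjusted 8-library p of Igfbp5 was 0.053. No clock gene of 17 tested rose or fell over 8 libraries, and 2 rose and 1 fell in the same-set comparison, beside 6.34% and 12.7% of all genes.

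Many connective tissue genes fell. Of 22 fibroblast and matrix genes, none rose and 13 fell over 8 libraries (median -0.79), beside 19.0% of all genes that fell, and 8 fell with the library set as a term, beside 9.59%. The list holds 6 of the 19 genes that fell at the criterion of the study. In the same-set comparison 1 rose and 11 fell (median -0.25), beside 12.7% of all genes that fell, and 3 passed the adjusted p. Col1a1, the main chain of type I collagen, was at 9.28, 11.1, 11.2 and 11.7 FPKM in HFrD and at 42.5, 115, 21.9 and 27.2 in Norm. It fell by 1.85 ± 0.437 (SE) and by 1.11 ± 0.108 (adjusted p = 0.00648). Col1a2, its partner chain, was at 11.4, 13.2, 12.4 and 12.7 FPKM in HFrD and at 37.9, 84.9, 23.4 and 24.5 in Norm (fell by 1.5, SE 0.353, and by 0.89, adjusted p = 0.00166). Col3a1, type III collagen, was at 6.15, 8.65, 10.2 and 12.3 FPKM in HFrD and at 31.3, 84.9, 18.2 and 24.9 in Norm (fell by 1.77, SE 0.42, and by 1.15, adjusted p = 0.0652). The HFrD mice differed little among themselves in type I collagen, whereas N_WTc369 held 115 FPKM, the highest of the 8.

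Col5a1, which nucleates collagen fibrils, fell by 1.1 (SE 0.261) and by 0.69 (adjusted p = 0.0613). Sparc, a collagen-binding matricellular protein, was at 43.4, 48.6, 52.7 and 56.7 FPKM in HFrD and at 132, 185, 71.1 and 68.4 in Norm (fell by 1.05, SE 0.301, and by 0.47, adjusted p = 0.0721). Col6a1, a chain of the microfibrillar type VI collagen, fell by 1.05 (SE 0.304) and by 0.50 (adjusted p = 0.0818). The list summed to 269.7 to 313 FPKM in HFrD, at most 399 in N_WTc397 and N_WTc401, and 602 and 999.9 in N_WTc368 and N_WTc369, so the direction held against each Norm pair and the size did not. Tendon genes went the same way, with 5 of 8 that fell over 8 libraries and 2 in the same-set comparison, beside 19.0% and 12.7% of all genes, among them Fmod, fibromodulin (by 0.93, SE 0.289, and by 0.40, adjusted p = 0.157). Kera, the keratan sulfate proteoglycan keratocan, was at 4.56, 5.53, 4.22 and 3.23 FPKM in HFrD and at 12.3, 16.3, 6.31 and 9.27 in Norm (fell by 1.11, SE 0.25, and by 0.70, adjusted p = 0.106). Without N_WTc401 the unadjusted same-set p was 0.0836 for Fmod and 0.0612 for Kera.

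**Figure D4:**
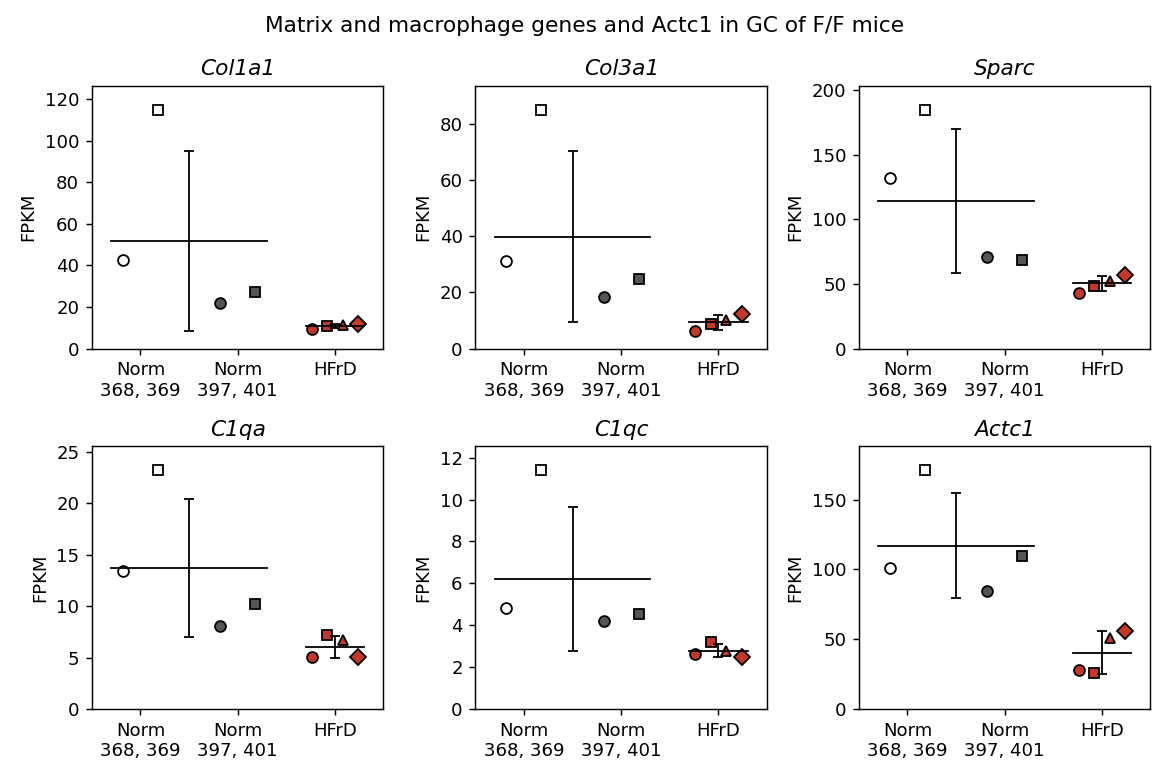
FPKM (vertical axes, linear) in each library of the matrix genes Col1a1, Col3a1 and Sparc, the macrophage complement genes C1qa and C1qc and the sarcomere gene Actc1, with N_WTc368 and N_WTc369 open, N_WTc397 and N_WTc401 grey and HFrD red. Lines are means over 4 libraries and bars SD. All HFrD libraries lie under all Norm libraries, and the matrix and complement genes are highest in N_WTc369 (open square).

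Many markers of blood-derived cells fell as well. Of 15 leukocyte genes none rose and 11 fell over 8 libraries (median -0.80), and 2 rose and 12 fell in the same-set comparison (median -0.49), beside 19.0% and 12.7% of all genes that fell. With the library set as a term 4 fell, beside 9.59% of all genes. In the same-set comparison 1 leukocyte gene that rose met the criterion of the study, and none that fell did. C1qa, a macrophage complement component, was at 5.08, 7.17, 6.71 and 5.10 FPKM in HFrD and at 13.4, 23.2, 8.03 and 10.2 in Norm (fell by 0.98, SE 0.275, and by 0.53, adjusted p = 0.119). C1qc, from the same complex, was at 2.64, 3.22, 2.75 and 2.48 FPKM in HFrD and at 4.80, 11.4, 4.21 and 4.53 in Norm (fell by 0.84, SE 0.254, and by 0.51, adjusted p = 0.0453). Cd74, the invariant chain of antigen presentation, fell by 0.98 (SE 0.273) and by 0.61 (adjusted p = 0.127). Without N_WTc401 the unadjusted same-set p was 0.0739 for C1qa and 0.0586 for Cd74. The leukocyte sum was 70.3 to 89.3 FPKM in HFrD, 100.3 and 134 in N_WTc397 and N_WTc401, and 139 and 371 in N_WTc368 and N_WTc369. Hba-a1, hemoglobin α of red cells, which shares reads with a near-identical copy, was at 24 to 31.7 FPKM in HFrD, 37.2 and 40.3 in N_WTc397 and N_WTc401, and 68.0 and 126 in N_WTc368 and N_WTc369 (fell by 1.16, SE 0.344, and by 0.54, adjusted p = 0.0663).

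Of 9 nerve and Schwann cell genes tested, 4 fell over 8 libraries and 2 in the same-set comparison. Of 10 endothelial genes, 1 fell over 8 libraries, and 2 rose and 1 fell in the same-set comparison. Over all genes 19.0% fell over 8 libraries, and 6.34% rose and 12.7% fell in the same-set comparison. Cdh5, the adhesion molecule of endothelium, was at 18.2 to 19.4 FPKM in HFrD, at 18 and 20 in N_WTc397 and N_WTc401, and at 37.1 and 41.7 in N_WTc368 and N_WTc369. Of 12 genes that define skeletal muscle, 1 rose and 4 fell over 8 libraries (median -0.06), and 1 rose and 2 fell in the same-set comparison (median -0.03). Those that fell in both were Ckm (muscle creatine kinase) and Pvalb (parvalbumin, a calcium buffer of fast fibers), which fell by 0.37 (SE 0.126) and 0.42 (SE 0.144) over 8 libraries and by 0.18 (adjusted p = 0.221) and 0.23 (adjusted p = 0.228) in the same-set comparison, with unadjusted p of 0.247 and 0.164 without N_WTc397. How much of each fall came with fewer non-muscle cells in the tissue taken was not tested.

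Other named genes belong to no list above. Abra, a sarcomere protein that activates SRF through actin, was at 195, 178, 183 and 165 FPKM in HFrD and at 61.2, 157, 89.3 and 66.9 in Norm, and rose by 1.04 (SE 0.26) and by 1.21 (adjusted p = 0.00525). Cish, a feedback inhibitor of STAT5 signalling, was at 7.05, 7.27, 2.28 and 4.06 FPKM in HFrD and at 1.15, 2.24, 1.03 and 2.2 in Norm (1.15, SE 0.306, and 1.18, adjusted p = 0.154). Flvcr1, a heme and choline transporter, was at 8.09, 12.1, 3.21 and 10.8 FPKM in HFrD and at 3.85, 4.11, 2.33 and 2.81 in Norm (1.06, SE 0.333, and 1.3, adjusted p = 0.147). For Cish and Flvcr1, WT_C301 was the lowest of its group, and for Flvcr1 it overlapped Norm. Without N_WTc397 the unadjusted same-set p was 0.115 for Cish and 0.0646 for Flvcr1.

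Fnip1, a partner of folliculin and AMPK, was at 36.0, 33.1, 32.1 and 31.9 FPKM in HFrD, 22.0 and 20.6 in N_WTc397 and N_WTc401, and 8.66 and 6.40 in N_WTc368 and N_WTc369. It rose by 1.32 (SE 0.346) and by 0.62 (adjusted p = 0.0106). Mib1, a ubiquitin ligase of Notch ligands, had the same order of groups (1.3, SE 0.374, and 0.64, adjusted p = 0.168, unadjusted p 0.0814 without N_WTc401).

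Actc1, cardiac α-actin, which is also expressed in developing and regenerating skeletal muscle, was at 28.0, 26.1, 51.0 and 56.1 FPKM in HFrD and at 101, 171, 84.3 and 109.6 in Norm. It had the smallest unadjusted p of the 45 genes (adjusted p = 0.145), and fell by 1.54 ± 0.297 (SE) and by 1.31 ± 0.311 (SE, adjusted p = 0.092). Smox, spermine oxidase, was at 55.8, 62.8, 82.8 and 113 FPKM in HFrD and at 116, 253, 153 and 143 in Norm (fell by 1.06, SE 0.276, and by 0.95, adjusted p = 0.105). Mybph, myosin-binding protein H, fell by 1.00 (SE 0.293) and by 0.89 (adjusted p = 0.186, unadjusted p 0.153 without N_WTc397). Clu, the secreted chaperone clusterin, was at 8.39, 8.90, 8.87 and 11.3 FPKM in HFrD and at 20.5, 33.7, 14.3 and 18.4 in Norm (fell by 1.07, SE 0.225, and by 0.74, adjusted p = 0.0474).

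The medians of the gene lists placed slow sarcomere genes at the upper end in both comparisons and leukocyte, Schwann cell, red cell and matrix genes among the lowest. Adipocyte genes had medians of -0.19 and -0.39, the second also among the lowest. For several lists the median was nearer to that of all genes, or changed sign, once N_WTc368 and N_WTc369 were left out, as with endothelial genes (-0.32 and 0.10), heat shock genes (-0.14 and 0.13) and immediate-early genes (-0.20 and 0.28). Lists of interferon, satellite cell, neuromuscular junction and smooth muscle genes had medians between -0.15 and 0.10 in both comparisons.

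**Figure D5:**
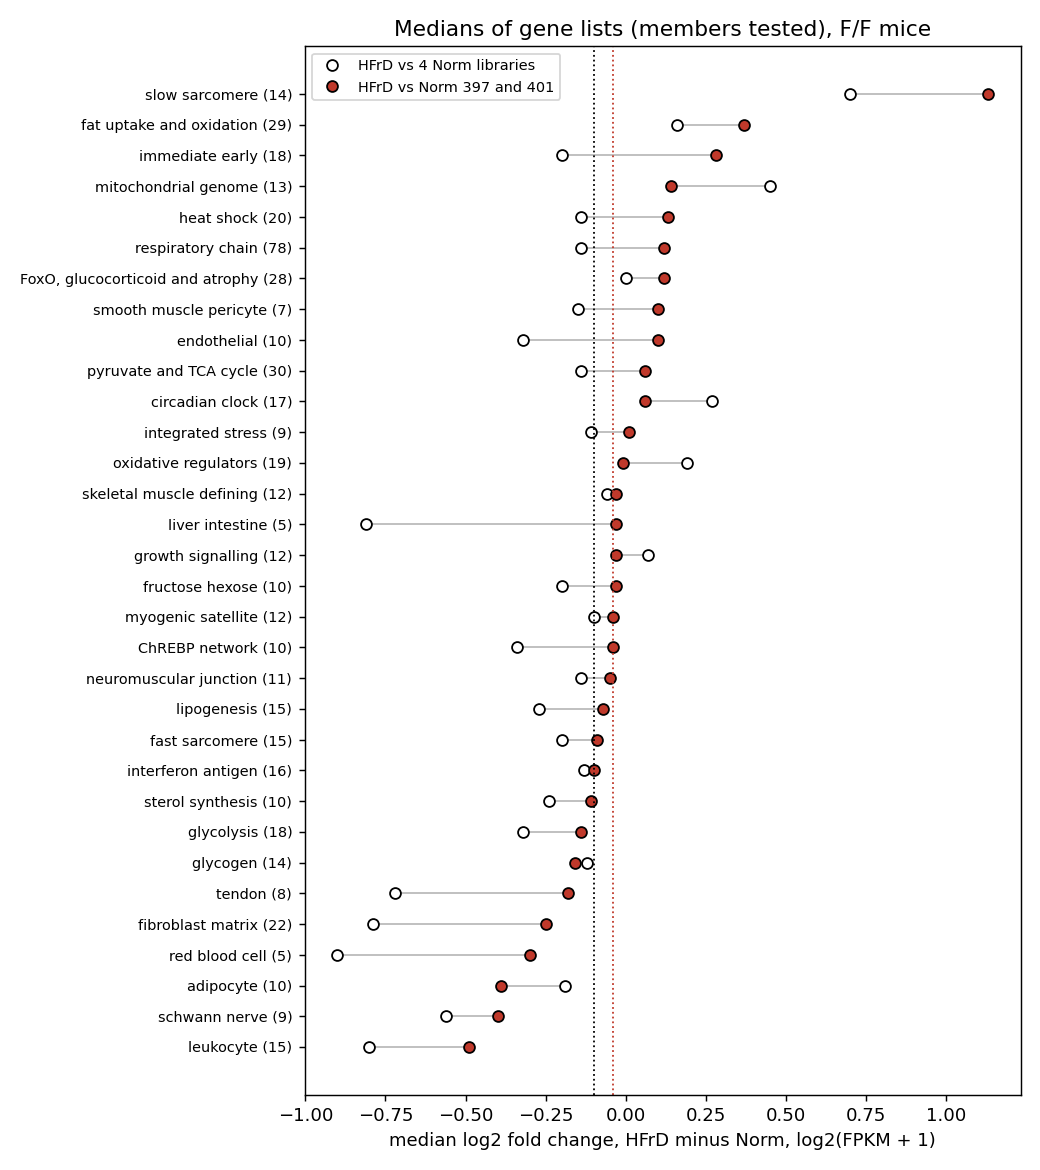
Median log2 fold change (HFrD minus Norm, horizontal axis, log2 scale) of each gene list with at least 5 members tested, with the number tested in parentheses, against all 4 Norm libraries (open) and against N_WTc397 and N_WTc401 (red). Dotted lines mark the medians of all genes tested, -0.10 (black) and -0.04 (red), and slow sarcomere genes lie highest at 0.70 and 1.13.

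Muscle knockout mice (ChMKO, the same floxed gene with Cre under the muscle creatine kinase promoter, Mck-cre) on the diet gave a further 4 libraries of the HFrD set. Myh7 was at 33.2, 22.0, 21.5 and 7.23 FPKM there, and Tnnc1 at 87.5, 62.4, 65.0 and 22.2. Col1a1 was at 7.95 to 11.9 FPKM and Ppargc1a at 11.9 to 23.2. The diet by genotype test in limma called 63 of 10732 genes at the criterion of the study (0.587%), 36 higher (0.335%) and 27 lower (0.252%) in ChMKO, and none at an adjusted p under 0.05, with 1106 at an unadjusted p under 0.05 (10.3%). The 63 ranged from 14 to 209 when single libraries were left out (14 without N_WTc397, 15 without N_WTc401, 177 without N_WTc368 and 209 without N_WTc369), and without N_WTc369 136 genes passed the adjusted p with the fold limit. For Myh7 the difference between genotypes in the diet effect was 0.24 (adjusted p = 0.924). All 4 Norm ChMKO libraries belong to the other set, in which Myh7 was at 0.289 to 11.5 FPKM, so in ChMKO mice the diet and the library set cannot be told apart.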

How the data were processed

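RNA was measured in 8 gastrocnemius libraries, 4 HFrD F/F and 4 Norm F/F, with 4 HFrD ChMKO and 4 Norm ChMKO libraries for the diet by genotype test. According to the labels and the methods of the study, total RNA was extracted with TRIzol, libraries were made with the NEBNext Ultra kit and sequenced on an Illumina NovaSeq, and the submitters' processing notes name fastp 0.18.0, Bowtie2 2.2.8, HISAT2 2.1.0, StringTie 1.3.1, RSEM and GRCm39. The values deposited by the authors are FPKM per gene, scaled per library by them; no counts were used as deposited. Stepwise FPKM values returned whole reads for 100% of values (tolerance 0.05 read), which gave the depths stated and a limma-voom alternative that called 223 genes.

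Values were converted to log2(FPKM + 1), genes averaging 0.5 FPKM or more across the 8 libraries were kept, and limma 3.58.1 (R 4.3.3) was fitted with empirical Bayes moderation and Benjamini-Hochberg adjustment over all genes tested. The pseudocount of 1 understates changes of low genes. Groups came from the labels. The library set came from the values of all 24 stress libraries and is not a labelled batch; with it as a term in the fit, 30 genes met the criterion of the study. The alternatives also covered the pseudocount, the filter, rescaling and each library left out. P-values measure the spread between libraries of single mice. In the 8-library comparison and the diet by genotype test that spread also holds the gap between the library sets. Named genes were the fiber and ChREBP markers of the study, 12 genes in each direction with the largest change or, where too few passed the adjusted p, the smallest p at the criterion of the study, and up to 4 members of each list with the smallest p, plus 20 genes chosen after their values were seen. The members and gene lists were chosen with earlier results of these data known. The fits were also run on simulated data with independent noise and no library sets, so that run cannot check the effect of the sets. In it 16 unchanged genes met the criterion of the study in the 8-library design and 5 in the same-set design. Promoters were read from RefSeq on GRCm38.p6 and figures drawn with matplotlib 3.10.9. The deposited coordinates are GRCm39. A gene of the nerve list is not reported here.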

Additional observations from a re-analysis of the deposited data

Results flagged for a closer look

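In each group of 4 libraries the highest and the lowest value of every followed gene was compared with the rest by Dixon's test. Among 234 pairs of gene and group, 18 held a library apart from the other 3. Chance alone gives about 1 in 20 groups for genes chosen without their values. Many of these genes were chosen by p or after their values were seen, so the count cannot be set against that rate.

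N_WTc369 was apart in 5 genes. It held 21.9 FPKM of Tpm3 (8.52 to 9.52 in the other Norm libraries), 479 of Myh2 (220.0 to 238), 175 of Myl3 (32.7 to 41.1), 175 of Acadl (113 to 118) and 11.4 of C1qc (4.21 to 4.80). These are slow or oxidative fiber genes and 1 macrophage gene, and the same mouse held the highest Norm values of Myh7, Tnnc1, Col1a1 and Fos. N_WTc368 stood apart for Thrsp at 7.23 FPKM (5.13 to 5.40) and for Alb at 68.5 FPKM (0.0225 to 0.346). In N_WTc401 Actn3 was at 2533 FPKM (2982 to 3042 in the others).

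Among the HFrD mice, WT_C292 had 3.15 FPKM of Srebf1 (4.19 to 4.43 in the others), 11.9 of Esrrg (9.04 to 9.20) and 136 of Idh2 (89.2 to 94.5). In WT_C294 Myh1 was at 688 FPKM (417 to 451), Ddx3y at 31.0 (34.8 to 35.5) and Pcx, pyruvate carboxylase, at 12.1 (15.2 to 15.6). WT_C310 had 28.5 FPKM of Sord, sorbitol dehydrogenase (32.5 to 32.6), 107 of Igfbp5 (141 to 143), 2685 of Ckm (2423 to 2451) and 0.216 of Alb (0.0182 to 0.0444). No gene passed the adjusted p in the limma test of the diet effect between ChMKO and F/F mice.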

How the results depend on the processing

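No paired analysis was possible because the HFrD and Norm mice share no replicate numbers. The 45 genes became 150 with a pseudocount of 0.1 and 223 in limma-voom, and 26 to 175 with 1 library left out; the cause was not tested. The count at an adjusted p with the fold limit, 0 over 8 libraries, was 20 against N_WTc397 and N_WTc401, 14 with the spread taken over 12 libraries of the set (an alternative chosen after seeing the data), and 0 to 7 with 1 library left out. Slow sarcomere genes that rose went from 7 to 11 with the library set as a term, 12 against N_WTc397 and N_WTc401, 12 with the 12 libraries and 7 to 13 with 1 library left out. Fat use genes went from 8 to 15 under median-ratio rescaling, 17 with the set as a term, 18 against N_WTc397 and N_WTc401, 19 with the 12 libraries and 6 to 16 with 1 library left out. Of the genes that fell, glycolysis went from 9 to 3, lipogenesis from 4 to 2, matrix from 13 to 8 and leukocyte from 11 to 4 with the set as a term, and lipogenesis to 2 and leukocyte to 7 at a mean FPKM of at least 5, which tests fewer genes. Against N_WTc397 and N_WTc401 the pseudocount of 0.1 moved 32 to 74 and 20 to 32, and 1 library left out gave 28 to 46 and 7 to 26. The diet by genotype count went from 63 to 197 with that pseudocount, 41 at the higher minimum and 14 to 209 with 1 library left out, and from 0 to 136 at the adjusted p. The first component had p from 0.0286 to 0.2 with 1 library left out. Of 117 genes followed, 90 had an unadjusted p under 0.05 over 8 libraries and 92 against N_WTc397 and N_WTc401, and no called gene changed sign in the alternatives run. N_WTc397 and N_WTc401 in place of all 4 left 93 on their side of 0.05, with 13 gained and 11 lost, and the set as a term left 84, with 13 gained and 20 lost. Depth limits genes near 0.5 FPKM, and intervals over 2 Norm mice rest on few libraries.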
